A study of Mus musculus with 6 samples.

Results

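The translation initiation and elongation factors were compared between 2 sets of Atoh1-lineage cells on 6 Affymetrix mouse arrays. They were chosen by name: a probe set belonged if it had a single gene symbol beginning with Eif or Eef and a digit, and the Y-linked copy Eif2s3y (2 probe sets) was left out. This gave 153 of 45101 probe sets, for 57 of 18194 genes with a single-symbol probe set. Only probe sets brighter than the median of the array in 3 or more of the 6 arrays were tested, which held for 121 of the 153 and for the brightest probe set of 54 of the 57 genes. No measured value enters the naming rule, but the family was picked with results of this same contrast known. All differences below are therefore a description, and nothing is read from how many members passed the test.

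E10-labelled cells (3 arrays) came from embryos whose mothers received tamoxifen at E10.5, and E13-labelled cells (3 arrays) from embryos whose mothers received it at E13.5. All embryos were Swiss Webster, carried Atoh1-CreER and the RCE EGFP reporter, and were collected at E14.5. The dose was 4 mg per 35 g pregnant dam by oral gavage. In both groups the r1/isthmus, the front of the hindbrain, was dissected and dissociated, and EGFP+ cells were sorted. Cre driven by Atoh1, a transcription factor of rhombic lip progenitors, marks the cells that express it around the time of tamoxifen and all their later progeny, so each sort holds a mixture of cell states. Whether the 3 samples of a group came from separate litters or pools is not stated in the labels, so the tests measure only how far these samples spread, and that spread may be technical.

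Initiation brings the ribosome to the start codon of an mRNA. eIF2 carries the initiator tRNA to the small ribosomal subunit, and eIF2B reloads eIF2 with GTP after each round. eIF3, eIF1, eIF1A and eIF5 assemble the scanning complex, while eIF4E, eIF4G and eIF4A (together eIF4F) bind the cap and unwind the leader. eEF1A delivers aminoacyl-tRNAs during elongation and eEF2 moves the ribosome along. In neurons and muscle of mammals the eEF1A2 copy replaces eEF1A1 after birth, and phosphorylation of eIF2 alpha, of the eIF4E-binding proteins and of eEF2 are the main known points at which the rate of translation is set.

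Signals are MAS5 intensities in arbitrary units, scaled on every array to a trimmed mean of 500, so they carry no information on the RNA content of a cell. Medians of the arrays ran from 97.7 to 112 units. Spearman's rho was 0.874 to 0.893 for pairs of E10 arrays, 0.938 to 0.945 for pairs of E13 arrays and 0.845 to 0.886 across groups, in each case over every probe set. The ratio of 3′ to 5′ signal for Actb was 17.4, 19.4 and 26.2 in E10 arrays, against 16.1, 15 and 12.9 in E13 arrays. In this ratio every E10 array lay above every E13 array. For Gapdh it was 10.6, 12.5 and 13.2 in E10 arrays, against 12.1, 9.47 and 11.1 in E13 arrays, so that the groups overlapped in this second ratio only. The groups differed widely in cell state. Summed over 6 neuronal markers the signal was 80305 to 84899 units in E10 arrays and 39670 to 44845 in E13 arrays, and 4 of the 6 passed as higher in E10. Summed over 3 markers of cycling cells it was 2688 to 3306 units in E10 arrays and 25213 to 27168 in E13 arrays, with all 3 higher in E13. The 4 markers of granule cell precursors summed to 17514 to 24027 units in E10 arrays and 43418 to 48240 in E13 arrays, and 3 of them passed as higher in E13, among them Atoh1 (936, 397 and 738 units in E10 arrays, 9733, 6819 and 9372 in E13 arrays). The 4 markers of radial glia and astrocytes summed to 8184 to 9433 units in E10 arrays and 4190 to 6452 in E13 arrays, and the list was split, with Fabp7 passing as higher in E10 and Slc1a3 as higher in E13. The 3 markers found for the oligodendrocyte lineage summed to 610 to 802 units in E10 arrays and 732 to 933 in E13 arrays, with Olig2 passing as higher in E10 and Pdgfra as higher in E13, and the 3 found for GABAergic neurons to 338 to 1048 units in E10 arrays and 190 to 299 in E13 arrays, with Gad1 higher in E10. The 4 microglial markers summed to 353 to 1020 units in E10 arrays and 174 to 283 in E13 arrays (Csf1r passed as higher in E10, C1qa stayed at or below 9.56), and 4 endothelial ones summed to 380 to 2005 units in E10 arrays and 179 to 1083 in E13 arrays, with none passing. Mesenchymal and erythroid markers summed to at most 1182 units in E10 arrays and 414 in E13 arrays, with none passing. In a bulk sort, fewer cells of a type and less RNA per cell cannot be told apart, and the part of cell mixture and RNA quality in the differences below was not tested. E10 array 3 stood apart in Xist, transcribed from the inactive X (10545, 8141 and 166 units in E10 arrays; 14178, 18008 and 19797 in E13 arrays). E13 array 3 was low in the Y-linked Kdm5d (604, 308 and 431 units in E10 arrays; 295, 388 and 12.1 in E13 arrays).

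The promoters of 5 members that passed the test are shown first: the 3 that were higher in E10-labelled cells (Eef1a2, Eif4a2, Eif1b) and, of those higher in E13-labelled cells with a promoter entry, the one with the largest difference (Eif2a) and the one that holds an E-box (Eif3k). Each runs 5′ to 3′ on the gene's strand, from 250 bases before to 50 bases after the annotated transcript start, as given by RefSeq on GRCm38.p6. Capitals mark CACGTG, the E-box bound by MYC, USF and related factors. Eef1a2 lies at chr2:181156966-181157265 on the minus strand, Eif4a2 at chr16:23107218-23107517 on the plus strand and Eif1b at chr9:120492356-120492655 on the plus strand. Eif2a lies at chr3:58525571-58525870 on the plus strand and Eif3k at chr7:28981839-28982138 on the minus strand.
Eef1a2: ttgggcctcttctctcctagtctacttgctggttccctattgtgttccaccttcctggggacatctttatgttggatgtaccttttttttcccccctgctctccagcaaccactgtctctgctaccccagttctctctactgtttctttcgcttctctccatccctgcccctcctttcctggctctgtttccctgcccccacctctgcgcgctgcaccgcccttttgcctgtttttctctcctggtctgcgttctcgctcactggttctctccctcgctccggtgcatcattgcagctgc
Eif4a2: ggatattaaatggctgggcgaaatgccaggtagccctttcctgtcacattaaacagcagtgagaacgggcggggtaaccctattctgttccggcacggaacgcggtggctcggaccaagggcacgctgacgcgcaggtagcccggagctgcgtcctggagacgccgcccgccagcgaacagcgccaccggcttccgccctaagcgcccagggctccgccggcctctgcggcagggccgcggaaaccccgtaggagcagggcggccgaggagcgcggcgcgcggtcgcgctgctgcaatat
Eif1b: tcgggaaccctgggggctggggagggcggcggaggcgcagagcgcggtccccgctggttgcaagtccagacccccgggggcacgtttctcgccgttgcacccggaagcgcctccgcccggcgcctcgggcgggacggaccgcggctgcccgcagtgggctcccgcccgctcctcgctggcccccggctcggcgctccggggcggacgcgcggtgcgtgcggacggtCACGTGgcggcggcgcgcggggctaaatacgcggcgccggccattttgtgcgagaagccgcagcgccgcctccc
Eif2a: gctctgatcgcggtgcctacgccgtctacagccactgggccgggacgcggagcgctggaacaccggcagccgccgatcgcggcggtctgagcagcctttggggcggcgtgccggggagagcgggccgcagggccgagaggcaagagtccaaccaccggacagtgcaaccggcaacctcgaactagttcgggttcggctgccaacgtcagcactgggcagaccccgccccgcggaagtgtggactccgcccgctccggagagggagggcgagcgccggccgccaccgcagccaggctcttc
Eif3k: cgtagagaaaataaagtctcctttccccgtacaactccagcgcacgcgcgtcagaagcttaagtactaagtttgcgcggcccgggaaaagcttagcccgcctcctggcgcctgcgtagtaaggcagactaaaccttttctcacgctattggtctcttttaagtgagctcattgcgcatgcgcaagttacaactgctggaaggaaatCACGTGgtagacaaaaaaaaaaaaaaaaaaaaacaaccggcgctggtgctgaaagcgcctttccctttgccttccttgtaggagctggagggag

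These windows differ in composition. The G and C share was 78.3% for Eif1b, 72.0% for Eif2a and 67.7% for Eif4a2, against 55.0% for Eef1a2 and 49.7% for Eif3k. Of the 5, 2 hold the E-box, Eif1b with its first base 24 bases before the start and Eif3k 44 bases before it. The RefSeq table held 46 of the 57 member genes. CACGTG, which reads the same on both strands, occurred in a promoter window of 12 of these 46 (26.1%), against 8.09% of 27025 mouse genes and 11.9% of the 9003 genes that were in the table and tested on the arrays. The 12 were Eef1aknmt, Eef2, Eef2k, Eif1b, Eif3a, Eif3f, Eif3k, Eif4a1, Eif4e, Eif4h, Eif5a and Eif5a2. Among tested members the E-box stood in 1 of 3 promoters of genes higher in E10, 1 of 6 of genes higher in E13 and 9 of 34 of genes that did not pass. TGACGTCA, the palindromic cyclic AMP response element, occurred in 1 of the 46 (Eef2; 2.17%), against 2.03% of all genes and 3.74% of those tested on the arrays. A start of C followed by 4 pyrimidines on the sense strand, the form of terminal oligopyrimidine mRNAs whose translation follows mTORC1, was found at the annotated start of 2 of the 46 (Eif2s3x and Eif3f; 4.35%), against 3.01% of all genes and 3.13% of those tested. These counts describe letters in a fixed window and say nothing about binding. The pyrimidine count required the C at the exact annotated start base, so a start annotated a few bases off was missed. It therefore does not settle which members have terminal oligopyrimidine mRNAs.

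The counts of members that passed in each direction are given as a description only. Of the 54 tested genes, each taken by its brightest probe set, 3 passed as higher in E10 (5.56%) and 11 as higher in E13 (20.4%), and 40 did not pass. Over all 11064 tested genes, 16.23% passed as higher in E10 and 13.96% as higher in E13. These shares were not matched on brightness: the median signal was 2019 units over the member genes and 663 over all genes. The test was limma on log2 signal, two-sided, with Benjamini-Hochberg adjustment over all tested probe sets and a threshold of 0.05. By probe set, 4 of 121 passed as higher in E10 (3.31%) and 21 as higher in E13 (17.4%), against 13.45% higher in E10 and 12.55% higher in E13 of all 23471 tested probe sets. Together these were 25 of 121 (20.7%), against 26.01% of all. The median log2 difference, E10 minus E13, was -0.31 over the member genes and -0.03 over all genes. The log2 difference was positive in 16 member genes and negative in 38. All 3 E10 arrays lay above all 3 E13 arrays in 7 of the 54 member genes, against 26.01% of all genes, and all 3 E13 arrays lay above in 29 (53.7%), against 26.37%. The counts depend on single arrays: without any one E13 array, 2 member probe sets passed as higher in E10 and 5 to 7 as higher in E13. Calls over all probe sets fell too, from 6104 to 3107, 3342 and 2942 without E13 array 1, 2 and 3. Calls of single genes lost below without an E13 array stand beside this drop over all probe sets. Leaving out E10 array 3, the one with low Xist signal, gave 4 higher in E10 and 17 higher in E13, with 5474 of all probe sets called. Leaving out arrays 3 of both groups together gave 1 higher in E10 and 0 higher in E13 in limma, with 5 and 19 in the same order at an unadjusted p under 0.05. In that fit 1504 of all probe sets were called.

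**Figure D1:**
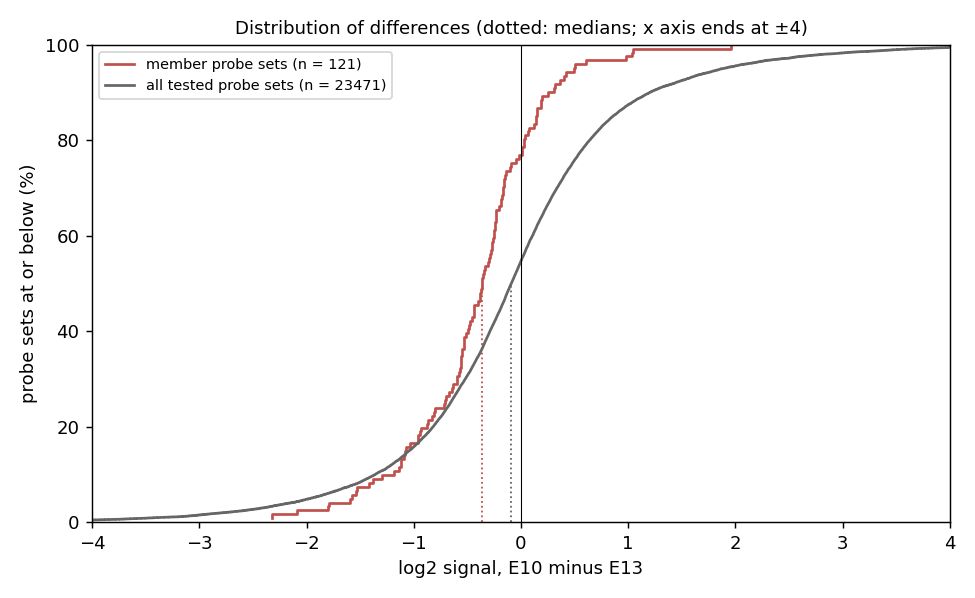
Cumulative share (%) of probe sets at or below each log2 difference, E10 minus E13, for the 121 tested member probe sets and for all 23471 tested probe sets, with dotted lines at the medians. The member curve lies further left in its middle and upper part, with a median of -0.364 against -0.09, and its differences span -2.33 to 1.96, a narrower range than that of all probe sets.

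The plot of cumulative shares shows that the 2 sets part mainly in the middle and upper range: the middle 50% of member probe sets lay between -0.706 and -0.094. Over all tested probe sets that range was -0.658 to 0.476, so the lower quartiles nearly coincided. Initiation and elongation factors are given apart. Over all genes the shares that passed were 16.23% higher in E10 and 13.96% higher in E13. Among 45 tested Eif genes, 2 passed as higher in E10 and 10 as higher in E13, with a median log2 difference of -0.35. Among 9 tested Eef genes, 1 passed in each direction and the median was 0.14. This contrast between the classes was not tested.

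**Figure D2:**
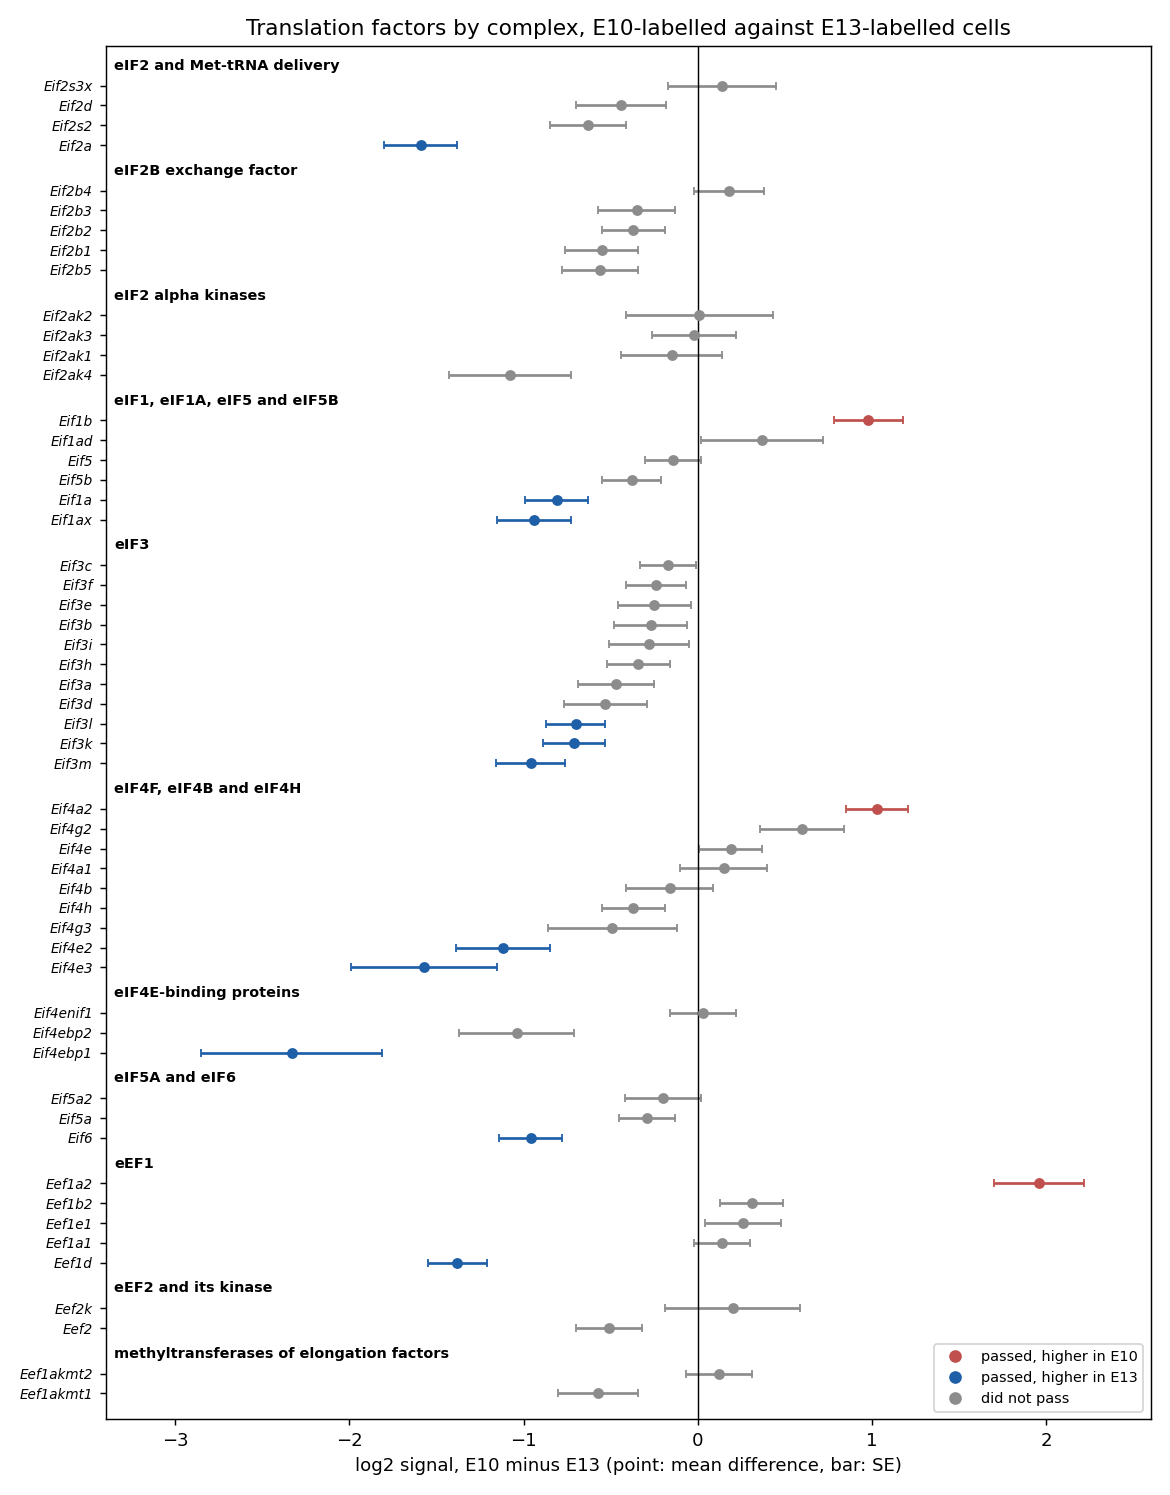
Log2 difference in signal, E10 minus E13, of the 54 tested member genes by their brightest probe set, grouped by factor complex, with limma standard errors as bars. Coloured points passed the threshold (3 higher in E10, 11 higher in E13). All 11 tested eIF3 genes lie left of 0, while 4 of 5 eEF1 genes lie right of it.

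The eIF2 group supplies the initiator methionyl-tRNA. Of its 4 tested genes 1 passed, Eif2a, as higher in E13, against 13.96% of all genes. Eif2a encodes eIF2A, a separate protein described as able to deliver initiator tRNA without eIF2, and is not the alpha subunit of eIF2. Its signal was 823, 965 and 679 units in E10 arrays, against 2676, 2124 and 2609 in E13 arrays. The lowest E13 array was more than double the highest E10 array, and the means were 822 ± 143 units in E10 and 2470 ± 301 in E13 (SD, n = 3 each), a log2 difference of -1.59 ± 0.21 (SE). A separate tested probe set of the gene also passed, at -0.94 ± 0.19. The beta subunit gene Eif2s2 had a log2 difference of -0.63 ± 0.22 and no overlap between groups but did not pass. Eif2s3x, the X-linked gamma subunit gene, had 6382, 4051 and 3340 units in E10 arrays, against 4204, 3181 and 4827 in E13 arrays. These values overlapped, and its log2 difference was 0.14 ± 0.31. Eif2d, which encodes another factor able to place tRNA on the ribosome, had -0.44 ± 0.26 with overlapping groups. The alpha subunit gene Eif2s1 was not analysed here.

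None of the 5 genes of eIF2B, the exchange factor of eIF2 whose mutations cause vanishing white matter disease in humans, passed the limma test. At an unadjusted p under 0.05 there were 0 higher in E10 and 2 higher in E13. Over all 11064 tested genes these counts were 2458 and 2375. E13 arrays lay above E10 arrays without overlap in 4 of the 5, against 26.37% of all genes, and log2 differences ran from -0.56 to 0.18. The largest was that of the catalytic epsilon subunit, Eif2b5, with 1156, 783 and 1100 units in E10 arrays, against 1600, 1465 and 1358 in E13 arrays. Its groups did not overlap, and the log2 difference was -0.56 ± 0.22. Eif2b4, for the delta subunit, was the exception in sign, at 0.18 ± 0.20 with overlapping groups.

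The 4 kinases that phosphorylate eIF2 alpha under stress also had no gene past the threshold. At an unadjusted p under 0.05 there was 1, higher in E13, against 2375 of all 11064 tested genes. That one was Eif2ak4 (GCN2), the kinase that senses uncharged tRNA. It had 368, 201 and 511 units in E10 arrays and 700, 733 and 704 in E13 arrays, with no overlap, a tight E13 group and a log2 difference of -1.08 ± 0.35. It was -1.39 ± 0.30 without E10 array 3, which passed, and -0.71 ± 0.21 without E10 array 2, which did not; it did not pass without E10 array 1 or any one E13 array either. The heme-regulated kinase Eif2ak1, the double-stranded RNA kinase Eif2ak2 and the endoplasmic reticulum kinase Eif2ak3 had overlapping groups and log2 differences of -0.15 to 0.01.

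The small factors around start codon choice held members in both directions. Of 6 tested genes 1 passed as higher in E10 and 2 as higher in E13, against 16.23% and 13.96% of all genes. Eif1b, a close paralogue of the start codon fidelity factor eIF1, had 7977, 9692 and 6701 units in E10 arrays and 4163, 3836 and 4255 in E13 arrays. All E10 arrays lay well above all E13 arrays, with means of 8123 ± 1501 units in E10 and 4085 ± 220 in E13 (SD, n = 3 each) and a log2 difference of 0.98 ± 0.20. Eif1 itself was not analysed here. The paralogues Eif1a and Eif1ax both encode eIF1A, which promotes scanning. Eif1a had 879, 896 and 887 units in E10 arrays, against 1805, 1454 and 1437 in E13 arrays, and Eif1ax, on the X chromosome, had 2489, 2568 and 1738 units in E10 arrays, against 4389, 4192 and 4226 in E13 arrays. In both genes the groups were apart, with log2 differences of -0.81 ± 0.18 for Eif1a and -0.94 ± 0.21 for Eif1ax. Their other probe sets were mixed. A separate one for Eif1a gave 0.08 and did not pass, nor did the mean over both at -0.37, and for Eif1ax one passed at -1.41 ± 0.21 while one gave 0.40 ± 0.27 and did not. The calls of Eif1b, Eif1a and Eif1ax were lost when any one E13 array was left out, with log2 differences of 0.93 to 1.01 for Eif1b, -0.87 to -0.70 for Eif1a and -0.95 to -0.92 for Eif1ax. Without any one E10 array they were kept, at 0.841 to 1.108 for Eif1b, -0.818 to -0.804 for Eif1a and -1.037 to -0.756 for Eif1ax. For the X-linked Eif1ax, -0.756 was the value without E10 array 3, the array low in Xist. The part of sex in this difference was not tested.

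Eif5, the GTPase activator of eIF2, had a log2 difference of -0.14 ± 0.16 by its brightest probe set, and a dimmer one passed at -0.83 ± 0.19. Eif5b, for the factor that joins the large subunit, had -0.38 ± 0.17 without overlap and did not pass. Eif1ad, named for an eIF1A domain, had 0.37 ± 0.35 with overlapping groups.

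The eIF3 complex, the large scaffold that holds the scanning complex together, was the largest group with a single sign. All 11 tested subunit genes had negative log2 differences by their brightest probe set, from -0.96 to -0.17 with a median of -0.34. These signs were the same after quantile normalization. Median centring moved every difference by the same amount in the negative direction, so it could not change these signs. None passed in limma as higher in E10, against 16.23% of all genes. At an unadjusted p under 0.05 none was higher in E10 either, against 2458 of all 11064 tested genes. As higher in E13, 3 of the 11 passed, against 13.96% of all genes. E13 arrays lay above without overlap in 8 of the 11, against 26.37% of all genes. Eif3m had 878, 710 and 751 units in E10 arrays and 1543, 1295 and 1711 in E13 arrays. Eif3k had 1777, 2025 and 1591 units in E10 arrays and 3108, 2747 and 2911 in E13 arrays. Eif3l had 4132, 5173 and 4703 units in E10 arrays and 7738, 7327 and 7643 in E13 arrays. In all 3 genes each E13 array lay above each E10 array, with log2 differences of -0.96 ± 0.20, -0.71 ± 0.18 and -0.70 ± 0.17. In the complex eIF3k and eIF3l bind each other at the edge of the PCI and MPN core, to which eIF3m also belongs. The other genes of that core, Eif3a (-0.47 ± 0.22), Eif3c (-0.17 ± 0.16), Eif3e (-0.25 ± 0.21), Eif3f (-0.24 ± 0.17) and Eif3h (-0.34 ± 0.18) did not pass. Neither did Eif3b (-0.27 ± 0.21) and Eif3i (-0.28 ± 0.23) of the module shared with yeast or the cap-binding subunit gene Eif3d (-0.53 ± 0.24). A dimmer probe set of Eif3i passed at -0.67 ± 0.18, while one of Eif3c gave 0.03 ± 0.24 and did not pass. The subunit genes Eif3g and Eif3j were not analysed here. The call of Eif3m was lost without E13 array 1 or 3 (-0.94 and -0.86). After median centring Eif3k (-0.77 ± 0.23) no longer passed. The calls of Eif3k and Eif3l were lost without any one E13 array or without E10 array 1 or 3, with log2 differences of -0.75 to -0.62 for Eif3k and -0.73 to -0.62 for Eif3l.

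Among the genes of the cap-binding machinery (eIF4F with its helpers eIF4B and eIF4H), 1 of 9 passed as higher in E10 and 2 as higher in E13. Over all genes these shares were 16.23% and 13.96%. The median log2 difference of the 9 was -0.16. The E10 gene was Eif4a2, one of the 2 paralogous eIF4A helicases. It had 12462, 11625 and 11553 units in E10 arrays and 6664, 5527 and 5292 in E13 arrays, so that the groups were far apart. The means were 11880 ± 506 units in E10 and 5828 ± 734 in E13 (SD, n = 3 each), a log2 difference of 1.03 ± 0.18. Without E13 array 3 the difference was 0.97 ± 0.23 and did not pass. Eif4a1, the other helicase, had 6802, 10823 and 8843 units in E10 arrays, against 9400, 6563 and 7784 in E13 arrays. Here the groups overlapped, with a log2 difference of 0.15 ± 0.25, which was -0.01 without E10 array 2 and -0.33 as a mean over the gene's tested probe sets.

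The cap-binding proteins split by paralogue. Eif4e, the main cap-binding protein, had 3278, 4268 and 3423 units in E10 arrays, against 3115, 3178 and 3258 in E13 arrays. Its E10 arrays lay just above its E13 arrays, but the log2 difference of 0.19 ± 0.18 did not pass and was 0.07 without E10 array 2. Eif4e2 encodes 4EHP, which binds caps without recruiting eIF4G and is known as a translational repressor. It had 880, 1540 and 1557 units in E10 arrays, against 3000, 2828 and 2537 in E13 arrays. Eif4e3, another cap-binding paralogue, had 271, 691 and 810 units in E10 arrays, against 1525, 1683 and 1561 in E13 arrays. Both sets of E13 arrays were above and tighter than the E10 arrays, with log2 differences of -1.12 ± 0.27 for Eif4e2 and -1.57 ± 0.42 for Eif4e3. A separate Eif4e3 probe set passed at -0.86 ± 0.22. Eif4e2 was the only member gene with probe sets that passed in opposite directions: one passed at -1.30 ± 0.36 and another at 1.04 ± 0.20, with 409, 324 and 339 units in E10 arrays and 146, 183 and 192 in E13 arrays. The mean over the gene's tested probe sets was -0.61. Each call of the brightest probe sets was lost without any one E13 array, at -1.18 to -1.06 for Eif4e2 and -1.60 to -1.53 for Eif4e3. Without any one E10 array the calls were kept but the sizes moved more, at -1.256 to -0.845 for Eif4e2 and -1.875 to -1.086 for Eif4e3.

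The scaffold genes did not pass. Eif4g2, whose product DAP5 lacks the eIF4E site and supports cap-independent initiation, had 34048, 42668 and 52066 units in E10 arrays, against 33571, 25212 and 25473 in E13 arrays. The groups only just missed overlapping, and the log2 difference was 0.60 ± 0.24. It was 0.33 after quantile normalization, and the gene's other 3 tested probe sets gave -0.05, -0.09 and 0.15, so that the mean over all 4 was 0.15. Among the alternatives, the brightest probe set passed only with trend and robust eBayes. Eif4g3 had 1192, 799 and 1915 units in E10 arrays, against 1379, 1645 and 2244 in E13 arrays, with overlap and a log2 difference of -0.49 ± 0.37, which was -0.19 without E10 array 2 and -0.82 without E10 array 3. Eif4b had overlapping groups (-0.16 ± 0.25), and Eif4h had E13 arrays above without overlap (-0.37 ± 0.18). Eif4g1 was not analysed here.

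The eIF4E-binding proteins hold eIF4E away from eIF4G until mTORC1 phosphorylates them. Eif4ebp1 had the most negative log2 difference of any member gene. It had 103, 38.3 and 140 units in E10 arrays, around the array median, against 577, 370 and 328 in E13 arrays. The lowest E13 array was more than double the highest E10 array, with means of 94.0 ± 51.7 units in E10 and 425 ± 133 in E13 (SD, n = 3 each) and a log2 difference of -2.33 ± 0.52. This SE is the largest among the 14 genes that passed by their brightest probe set, and MAS5 values near the array median vary strongly on the log scale. A separate probe set, which met the signal filter only through its E13 arrays and so had to differ, gave -2.32, and another gave -0.53 ± 0.62 and did not pass. The call of the brightest was lost without any one E13 array, at -2.49 to -2.08. It was kept without any one E10 array, at -2.712 to -1.775. Eif4ebp2, the form best known from brain, had 779, 361 and 534 units in E10 arrays, against 1347, 1093 and 885 in E13 arrays. The groups did not overlap, but the log2 difference of -1.04 ± 0.33 did not pass. It was -1.31 ± 0.29 without E10 array 1, which passed, and -0.76 ± 0.28 without E10 array 2, which did not; nor did it pass without E10 array 3 or any one E13 array. Eif4enif1, the carrier of eIF4E into the nucleus, had overlapping groups and 0.03 ± 0.19.

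Of eIF5A and eIF6, only the eIF6 gene passed by its brightest probe set. eIF6 keeps the large ribosomal subunit from joining the small one too early and takes part in ribosome assembly. Eif6 had 1323, 1522 and 1243 units in E10 arrays, against 2959, 2438 and 2563 in E13 arrays. The groups were apart, with a log2 difference of -0.96 ± 0.18, while a dimmer Eif6 probe set gave 0.51 ± 0.27 and did not pass, and the mean over both was -0.23 and did not pass. Without E13 array 1 or 3 the brightest no longer passed (-0.88 and -0.98). eIF5A, the hypusine-modified factor that helps ribosomes through difficult peptide bonds, is encoded by Eif5a and Eif5a2. Eif5a had 18524, 18756 and 17207 units in E10 arrays, against 23625, 21288 and 21619 in E13 arrays. All E13 arrays lay above, yet the log2 difference of -0.29 ± 0.16 was small and did not pass, and a dimmer probe set passed at -1.09 ± 0.17. The brightest passed with trend and robust eBayes, and the mean over both probe sets passed at -0.69. Eif5a2 had 371, 401 and 258 units in E10 arrays, against 384, 383 and 399 in E13 arrays, with overlap and -0.20 ± 0.22. Without E10 array 3 the difference was -0.01, and its other tested probe set, with 154, 10.8 and 54.4 units in E10 arrays against 193, 116 and 168 in E13 arrays, gave -1.79 ± 0.92 and did not pass. Eif4a3, the helicase of the exon junction complex, had a single probe set at about background, from 4.44 to 6.83 units, and was not tested. That probe set alone does not show whether the gene was expressed.

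In the eEF1 group the largest positive and one of the larger negative log2 differences of the family stood side by side. Eef1a2 had 1239, 1590 and 1192 units in E10 arrays, against 334, 456 and 264 in E13 arrays. Every E10 array was more than double every E13 array, with means of 1340 ± 217 units in E10 and 351 ± 97.1 in E13 (SD, n = 3 each) and a log2 difference of 1.96 ± 0.26, or 3.88-fold. It was the only one of the 14 named members that passed whose call was kept under all 17 alternatives. Without both arrays 3 its adjusted p in limma was 0.0499, just inside the threshold. Among the alternatives that covered their probe sets, Eef1d and Eif2a lost their calls only in that fit, at 0.0553 and 0.0598. Eef1a1, the ubiquitous form, had 40190, 41651 and 40424 units in E10 arrays, against 38576, 37431 and 34867 in E13 arrays. Its groups did not overlap, but the log2 difference of 0.14 ± 0.16 did not pass, and quantile normalization turned it to -0.16. Eef1d, for the delta subunit of the exchange complex that reloads eEF1A with GTP, went the other way, with 2831, 2624 and 2512 units in E10 arrays and 7323, 6569 and 6803 in E13 arrays. The groups were tight and apart, at 2656 ± 162 units in E10 and 6898 ± 386 in E13 (SD, n = 3 each) and a log2 difference of -1.38 ± 0.17, and a separate probe set passed at -1.80 ± 0.27. One more tested Eef1d probe set gave -1.12 ± 0.95 and did not pass. The other exchange subunit tested, Eef1b2, had 0.31 ± 0.18 with E10 arrays above and did not pass, and Eef1e1, of the aminoacyl-tRNA synthetase complex, had 0.26 ± 0.22 with overlap. The gamma subunit gene Eef1g was not analysed here.

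Neither Eef2 nor Eef2k passed, and 1 of the pair, Eef2, had an unadjusted p under 0.05. Over all 11064 tested genes, 2375 had such a p with E13 higher. Eef2, the translocase, had 7700, 7405 and 9116 units in E10 arrays, against 12401, 10156 and 11992 in E13 arrays. The groups did not overlap and the log2 difference was -0.51 ± 0.19. Among the alternatives, it passed only with a 70th percentile filter or with trend and robust eBayes. Eef2k, the calmodulin-dependent kinase that inactivates eEF2, had 1579, 944 and 552 units in E10 arrays, against 903, 748 and 806 in E13 arrays. The E10 arrays spanned the E13 ones, at 0.20 ± 0.39. Among the methyltransferases of elongation factors, 2 of 4 genes were tested and none passed, with 1 at an unadjusted p under 0.05. Eef1akmt1 had 1331, 2038 and 1428 units in E10 arrays, against 2583, 2218 and 2221 in E13 arrays, without overlap and with a log2 difference of -0.57 ± 0.23. It passed without E10 array 2 (-0.76 ± 0.18), and a dimmer probe set passed with all arrays at -0.81 ± 0.22.

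**Figure D3:**
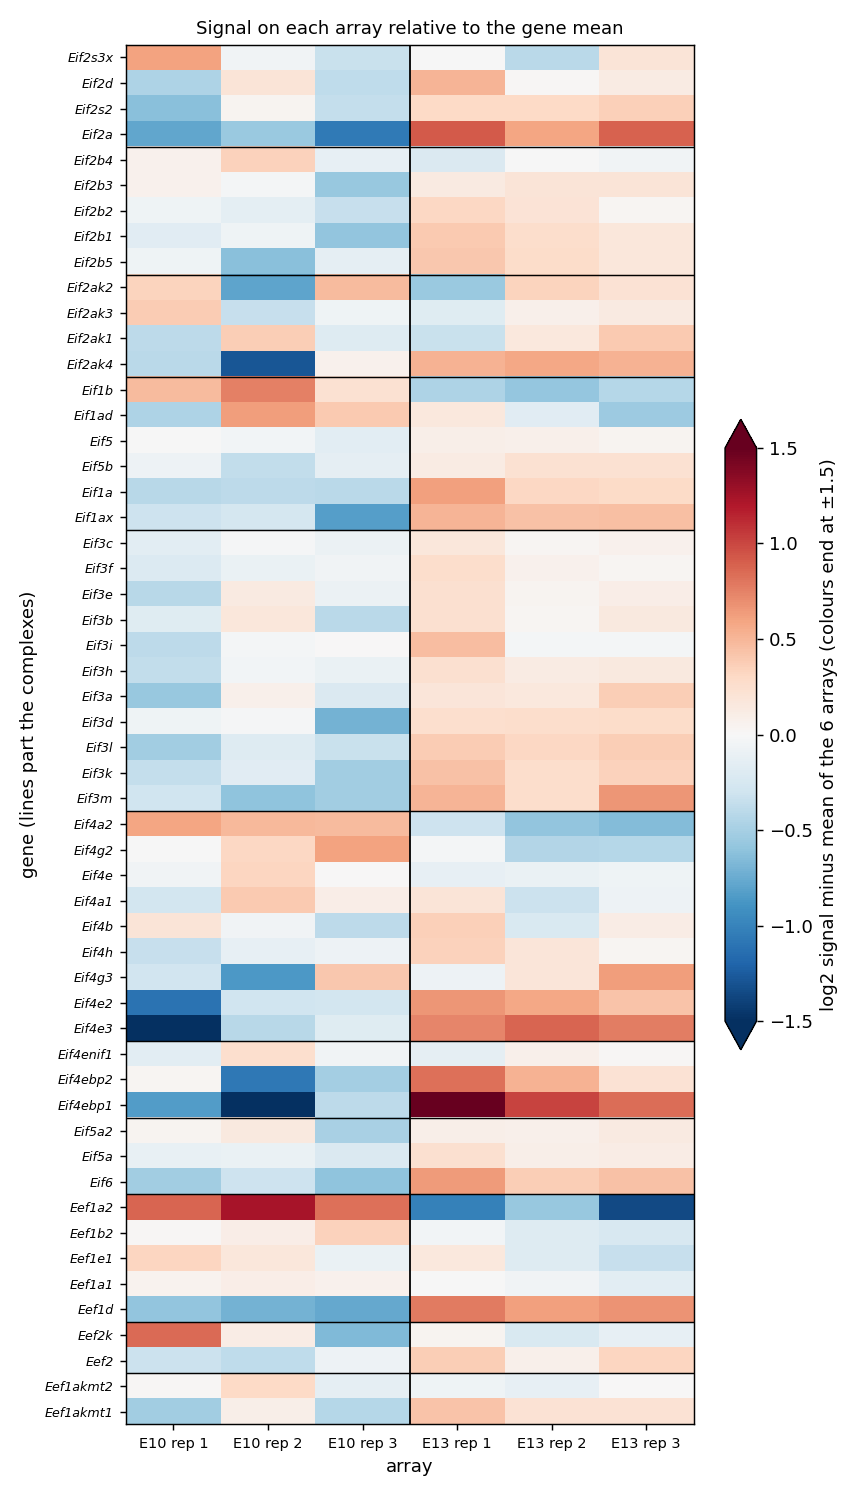
Log2 signal of each of the 54 tested member genes (rows, by complex) on each of the 6 arrays (columns, E10 left of E13), as the difference from the gene's mean over the arrays, with colours ending at ±1.5. Eef1a2, Eif4a2 and Eif1b are higher on all 3 E10 arrays, and in the eIF3 block the E13 arrays lie above without overlap in 8 of 11 genes.

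The map of signals by array shows more scatter among E10 arrays than among E13 arrays. Over the 54 member genes the median SD of log2 signal was 0.272 in E10 arrays and 0.12 in E13 arrays, and over all genes it was 0.329 in E10 arrays and 0.186 in E13 arrays. In both sets the E10 arrays scattered more.

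Within a pair of paralogues, the ratio of the 2 signals on an array removes what both share. The log2 ratio of Eef1a2 to Eef1a1 was 1.81 higher in E10 arrays than in E13 arrays, with SDs of 0.20 in E10 and 0.35 in E13 over 3 arrays each. The ratio of Eif4a2 to Eif4a1 was 0.89 higher in E10 (SD 0.39 in E10, 0.16 in E13). The ratio of Eif4e2 to Eif4e differed by -1.31 (SD 0.38 in E10, 0.15 in E13), and that of Eif4e3 to Eif4e by -1.76 (SD 0.77 in E10, 0.08 in E13). By their brightest probe sets, one copy in each of these 4 pairs differed far more than the other between the cell groups. Other tested probe sets gave -1.30, -1.07 and 1.04 for Eif4e2, -0.36 and 0.42 for Eif4e, -0.59 and -0.55 for Eif4a1 and -0.86 for Eif4e3. Ratios from these were not computed. The ratio of Eif4ebp2 to Eif4ebp1 differed by 1.29 (SD 0.68 in E10, 0.17 in E13), with both copies lower in E10. By contrast Eif1ax to Eif1a differed by -0.12 (SD 0.31 in E10, 0.15 in E13) and Eif5a2 to Eif5a by 0.08 (SD 0.27 in E10, 0.10 in E13), both within the spread of the E10 arrays.

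**Figure D4:**
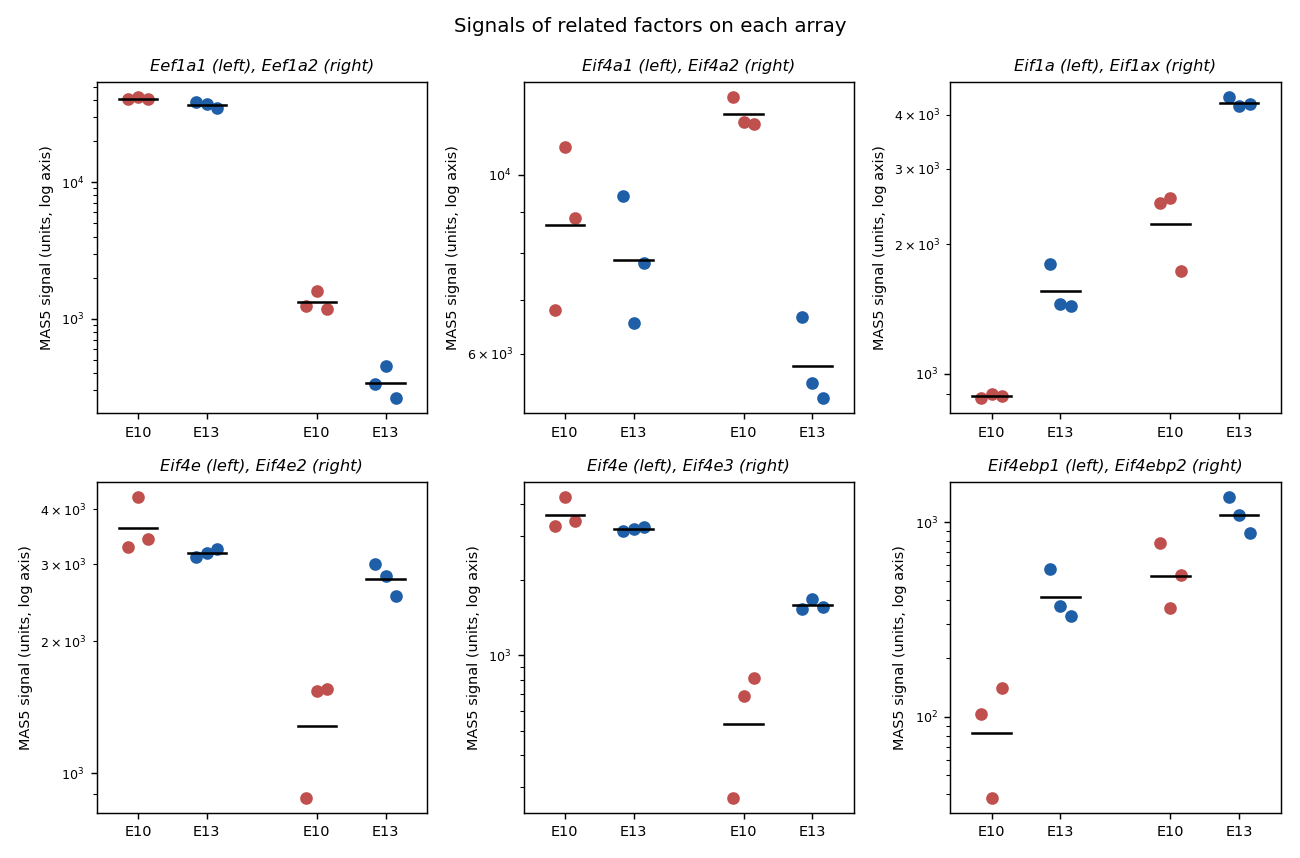
MAS5 signal (log axis) of paralogous factor genes on each array, E10 left of E13, 1 point per array and a bar at the geometric mean. Eef1a2 and Eif4a2 differ by 1.96 and 1.03 log2 units, while Eef1a1 and Eif4a1 differ by 0.14 and 0.15; levels of different probe sets cannot be set against each other.

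Probe sets of one gene often differed. Among 33 member genes measured by 2 or more tested probe sets, 19 had all log2 differences of 1 sign. Of the 10 among them whose brightest probe set passed, 6 had another that passed in the same direction. Among these, the dimmer Eif4ebp1 probe set met the signal filter only through its E13 arrays and is no evidence of agreement. In all, 4 genes (Eef1akmt1, Eif3i, Eif5 and Eif5a) passed only by a dimmer probe set. By any probe set 18 genes passed, 15 of them as higher in E13 and 4 as higher in E10, with Eif4e2 in both. A gene with more probe sets has more chances to pass. The matching counts over all genes, also for shared signs, were not computed, so nothing is read from these counts. The other 21 tested genes had 1 tested probe set. Members just inside the threshold were a probe set of Eef1akmt1 (-0.81 ± 0.22) and one of Eif4e2 (-1.30 ± 0.36). Just outside were one of Eif2s2 (-0.64 ± 0.20) and one of Eif4e2 (-1.07 ± 0.34). At the limit of the signal filter, Eef1aknmt lay above the array median in 2 arrays (36.7, 86.9 and 112 units in E10, 92.1, 119 and 83.8 in E13) and was not tested, and a dimmer Eif4ebp1 probe set lay above it in 3 and was.

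Genes that act around these factors are also given as a description. Of 44 such genes listed, 40 were tested, 1 passed as higher in E10 and 2 as higher in E13, against 16.23% higher in E10 and 13.96% higher in E13 of all genes. The log2 difference was negative in 30 of the 40, with a median of -0.17. Cyfip2, a partner of FMRP that can bind eIF4E and also sits in the actin-regulating WAVE complex, had 2584, 1963 and 2406 units in E10 arrays, against 1145, 1052 and 1054 in E13 arrays. Fmr1, which encodes FMRP, a repressor of translation in neurons, had 994, 990 and 892 units in E10 arrays, against 1285, 1652 and 1610 in E13 arrays. Pabpc1, the main cytoplasmic poly(A)-binding protein and a partner of eIF4G, had 18458, 18700 and 20339 units in E10 arrays, against 32689, 31524 and 29300 in E13 arrays. None of the 3 overlapped between groups, and the log2 differences were 1.09 ± 0.19, -0.65 ± 0.19 and -0.70 ± 0.16. None of 8 mTORC1 pathway genes passed in limma, nor any of 5 genes of the integrated stress response, 6 mitochondrial translation factors, 6 termination and recycling genes, 3 reinitiation genes and 2 hypusine synthesis genes. At an unadjusted p under 0.05 there were 1 mTORC1 gene, 1 stress response gene and 2 mitochondrial genes, all higher in E13. There were also 2 termination genes, 1 in each direction, and none in the last 2 lists. Over all 11064 tested genes, 2458 were higher in E10 and 2375 higher in E13 at that p. With intensity trend and robust eBayes, 1 gene passed in each of the stress response, mitochondrial and termination lists, and none in the other 3.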

How the data were processed

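Total RNA of sorted EGFP+ cells was biotin-labelled and hybridised to Affymetrix arrays, per the labels' protocols. The deposited values are 1 intensity per probe set and array, made by the authors with MAS5, per the submitters' processing notes; the sources used here give neither its version nor its detection calls. Every array has a mean of 500 once its lowest and highest 2% of signals are set aside. Signals carry no counts, so the 3 arrays per group limit the precision.

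Gene names came from the platform annotation: 34958 probe sets named 1 symbol, 932 several and 9211 none. Another 8 probe sets with several symbols that included a factor were not used. The 64 control probe sets were left out. The test was limma 3.58.1 (lmFit, eBayes) on log2 signals in R 4.3.3, E10 minus E13, in all 6 arrays without covariates, two-sided, with Benjamini-Hochberg adjustment over all 23471 tested probe sets. A gene was represented by the single-symbol probe set whose mean log2 signal was highest. Folds are 2 to the power of the log2 difference. The script was tested on simulated data.

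Named genes were paralogue pairs, up to 3 of the largest passing non-overlapping genes per complex (or the largest where none passed), and up to 3 passing genes per direction of the other translation genes; further subunits were added to complete a complex. The members and lists were chosen with earlier results of these data known. Alternatives were other normalizations, low-signal treatments, filters, variance models, probe set types, a replicate block and left-out arrays. Promoters were RefSeq windows on GRCm38.p6, searched as literal strings.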

Additional observations from a re-analysis of the deposited data

How the results depend on the processing

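The main comparison called 6104 of all probe sets, 4 members higher in E10 and 21 higher in E13. Under quantile normalization, median centring, an offset before log2, signals floored at the array median, a filter at the 70th percentile, and trend with robust eBayes, these counts stayed within 1.5 times, and the median member difference stayed within its array-to-array spread under every alternative fitted to all probe sets. Same-numbered samples did not deviate together (r of -0.029, -0.075 and -0.006), and differently numbered ones gave -0.041 to 0.062. This gave no sign of pairing by number, but with 3 arrays per group it cannot exclude pairing. With the replicate block 3593 probe sets, 2 members higher in E10 and 7 higher in E13 were called. Without a filter the counts were 2719, 1 and 4. With only the plain probe set type they were 4405, 4 and 9. Leaving out 1 array gave 2942 to 5849, 2 to 4 and 5 to 20. Leaving out replicates 3 of both groups gave 1504, 1 and 0. The cause of these changes was not tested, beyond the smaller samples. Directions reversed for Eef1a1 under quantile normalization (-0.16), for Eif4a1 without E10 replicate 2 (-0.014, in a range of -0.014 to 0.321 over single arrays left out) and as the mean over its probe sets (-0.33), and for Eif5a2 without both replicates 3 (0.007); none of these genes had passed. Signals near the array median limit the low members, among them Eif4ebp1.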
